A study of Mus musculus with 8 samples.

Results

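Transcripts of 10 genes that injured or poorly repaired kidney tubules are known to switch on were examined in the renal cortex of aged and young mice. The genes were Havcr1, Lcn2, Vcam1, Spp1, Clu, Krt8, Krt18, Krt20, Sox9 and Cd44, taken by symbol from the 22609 genes counted, and all 10 were present. RNA-Seq was performed on 4 aged mice (30 months by the labels) and 4 young mice (5 months by the labels), with 1 library per mouse. The study's RNA-Seq methods give a slightly higher mean age for the aged mice. All 8 mice were untreated males of the strain given as C57BL6, so age was the only labelled difference between the groups. Of the 10 genes, 9 had enough counts to be tested, and Krt20 did not pass the filter on low counts.

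When the proximal tubule is damaged, its cells lose their transporters, flatten, divide and rebuild the epithelium. During this repair they make proteins that a resting tubule makes little of, among them a phagocytic receptor (Havcr1), secreted proteins (Lcn2, Spp1, Clu), adhesion molecules (Vcam1, Cd44), keratins of simple epithelia (Krt8, Krt18, Krt20) and the transcription factor Sox9. Cells that fail to finish repair are known to keep Vcam1 and some of the secreted proteins on. Several of these genes are also made by uninjured cells, for example Spp1 in the loop of Henle, Krt8 and Krt18 in collecting duct, and Vcam1 in endothelium and parietal epithelium. In tissue RNA, more cells of a type and more RNA per cell cannot be told apart.

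Each library held 14820804 to 19821429 pairs assigned to genes, and the size of the libraries was not distinguishable between the ages (2-sided exact permutation test, p = 0.943). At this depth 3 counts, taken as the floor, were 0.151 to 0.202 CPM (the counts of a gene scaled to a fixed total per library), which covers counting error only. Genes were called at an adjusted p under 0.05 and a fold change above 1.5 in edgeR's quasi-likelihood test, and 287 of 13944 genes passed, or 2.06%. Aged mouse 1 stood apart from the other 7 mice before any marker was considered. It was the highest of the 8 mice for 28.4% of the genes tested, and it lay at -71.5 on a first principal component that held 48.1% of the variance, against -16.3 to 26.2 for the others. Each tested marker's change is therefore given with and without this mouse, and leaving it out gave 444 called genes of 14016 tested (3.17%).

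None of the 9 markers tested was called with age by edgeR, beside 2.06% of all genes. At an unadjusted p under 0.05 there were 3 higher in aged mice (Vcam1, Spp1 and Cd44), where 13.4% of all genes reached that level, and 1 lower (Clu), where 12.1% did. DESeq2 called Vcam1 higher, beside 3.49% of all genes, and limma-voom called no marker, beside 1.71%. The median log2 fold change of the 9 markers was 0.46, and 0.24 without aged mouse 1, against 0.03 and 0.02 over all genes tested. Without aged mouse 1, edgeR called 0 of 9, and Vcam1 was the 1 marker at an unadjusted p under 0.05 (13.1% of all genes were higher and 13.4% lower at that level).

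**Figure D1:**
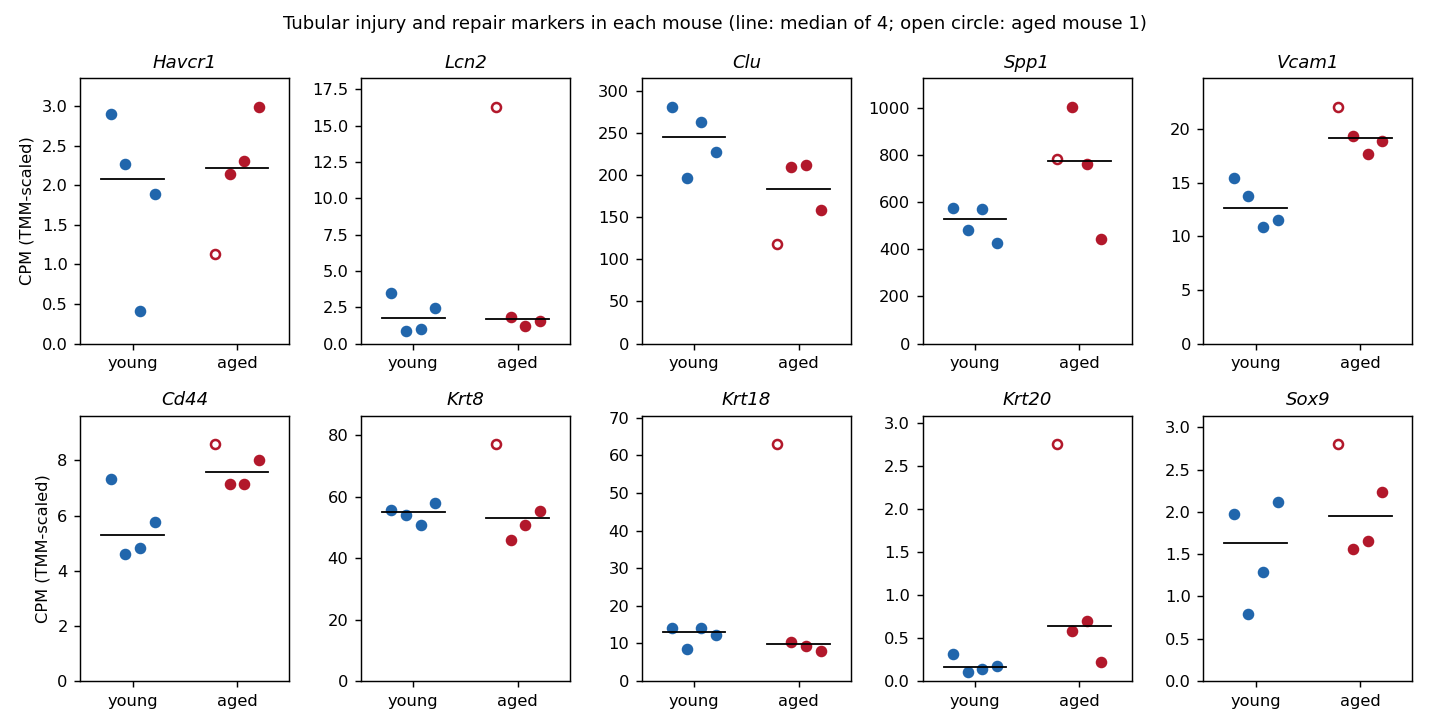
CPM of each marker in each mouse, with a panel and a linear axis per gene. Points are mice, lines are group medians and the open circle is aged mouse 1. Vcam1 is the gene whose groups do not overlap, and Lcn2, Krt18 and Krt20 each have their highest point in aged mouse 1.

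Per length of transcript, the young cortex spanned a wide range of levels. Spp1 came first at 311 ± 44.5 RPKM (read pairs per kilobase of exon, scaled like CPM, SD, n = 4), followed by Clu at 70.3 ± 11, Krt8 at 30.3 ± 1.64 and Krt18 at 8.72 ± 1.87. Vcam1 lay at 2.63 ± 0.439. These 5 levels did not overlap between neighbours in the order. Lcn2 (0.846 ± 0.539), Cd44 (0.822 ± 0.181) and Havcr1 (0.807 ± 0.457) overlapped one another, and Sox9 (0.374 ± 0.15) overlapped Lcn2 and Havcr1. Krt20 was the lowest at 0.0943 ± 0.0463 RPKM, from 2 to 5 counts per young library.

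Havcr1 encodes Kim-1, a surface receptor with which injured tubular cells take up dying neighbours, and its shed part is measured in urine as a sign of tubular damage. It lies on mm9 at chr11:46548582-46593080 on the plus strand. Its level was 1.13, 2.14, 2.30 and 2.99 CPM in aged mice 1 to 4 and 2.90, 2.27, 0.408 and 1.89 CPM in young mice 1 to 4. The groups overlapped, and the lowest value of all was that of young mouse 3. The log2 fold change was 0.19 (edgeR, 95% interval -0.93 to 1.3, adjusted p = 0.834), and 0.40 (adjusted p = 0.62) without aged mouse 1. The direction turned when aged mouse 4 (-0.02) or young mouse 3 (-0.14) was left out. A difference within that interval was not detectable at this depth and number of mice.

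Lcn2 encodes neutrophil gelatinase-associated lipocalin, which binds iron-carrying siderophores and is secreted by the distal nephron and by neutrophils. It lies at chr2:32240153-32243317 on the minus strand. Aged mouse 1 had 16.3 CPM, while aged mice 2 to 4 had 1.82, 1.23 and 1.52 CPM. The young mice had 3.45, 0.846, 1.02 and 2.48 CPM. Thus 1 aged mouse was 4.74 times the highest of the other 7, and the other 3 aged mice lay within the young range. Its log2 fold change was 1.43 ± 0.90 (SE, edgeR adjusted p = 0.333) and turned to -0.36 ± 0.48 (adjusted p = 0.675) without aged mouse 1.

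Spp1 encodes osteopontin, a secreted phosphoprotein that binds integrins and Cd44 and is abundant in the loop of Henle. It lies at chr5:104864137-104870069 on the plus strand. The aged mice had 783, 1003, 760 and 445 CPM and the young mice 575, 481, 572 and 424 CPM. Aged mice 1 to 3 were above every young mouse, and aged mouse 4 lay inside the young range. The log2 fold change was 0.54 ± 0.23 (SE, edgeR, 95% interval 0.03 to 1.05, adjusted p = 0.174), and 0.52 (adjusted p = 0.208) without aged mouse 1. Spp1 was called when aged mouse 4 was left out (0.73, adjusted p = 0.0295). The summed level of 10 loop of Henle and distal tubule genes was 5241 to 6943 CPM in aged and 6672 to 9110 CPM in young mice (exact permutation p = 0.143), and that of 9 macrophage genes was 96.5 to 212 and 115 to 171 CPM. Their part in the level of Spp1 was not tested.

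Clu encodes clusterin, a secreted chaperone that holds unfolded proteins and cell debris in solution. It lies at chr14:66587320-66600385 on the plus strand. Its level was 118, 209, 212 and 158 CPM in the aged mice and 281, 196, 263 and 227 CPM in the young mice. Aged mice 1 and 4 were below every young mouse, whereas aged mice 2 and 3 lay above young mouse 2. Its log2 fold change was -0.47 ± 0.20 (SE, edgeR, 95% interval -0.91 to -0.03, adjusted p = 0.172), so Clu was the 1 marker with a lower fitted level in aged mice. Without aged mouse 1 it was -0.33 ± 0.15 (adjusted p = 0.202).

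Vcam1 encodes vascular cell adhesion molecule 1, which holds leukocytes through integrin alpha 4 and marks proximal tubule cells that have not completed repair. It lies at chr3:115812938-115832606 on the minus strand. The aged mice had 22.1, 19.4, 17.7 and 18.9 CPM and the young mice 15.5, 13.8, 10.9 and 11.5 CPM. Every aged mouse was above every young mouse, which held for no other marker and for 8.85% of all genes tested. Mean levels were 19.5 ± 1.86 CPM (SD, n = 4) and 12.9 ± 2.16 CPM (SD, n = 4). The fitted fold change was 1.51 (edgeR, 95% interval 1.22 to 1.86, adjusted p = 0.0526), and Vcam1 ranked 445 of 13944 genes by p, so it missed the threshold by a small margin.

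The call for Vcam1 depended on the settings. It passed with upper-quartile scaling (log2 fold change 0.63, adjusted p = 0.0477), with library size as the only scaling (0.70, adjusted p = 0.0348) and with DESeq2 (adjusted p = 0.00369). It also passed without aged mouse 4 (0.61, edgeR adjusted p = 0.0481). limma-voom gave 0.57 with an adjusted p of 0.0478 and a fold below 1.5. Without aged mouse 1 edgeR gave 0.53 ± 0.13 (SE, adjusted p = 0.0532), and over all 17 alternatives the log2 fold change stayed between 0.52 and 0.70 and the adjusted p between 0.00369 and 0.147.

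Cell types that also make Vcam1 were followed through their markers. The sum over 7 endothelial genes was 483 to 748 CPM in aged mice, or 483 to 641 CPM without aged mouse 1, and 584 to 620 CPM in young mice. The sum over 5 genes of the parietal epithelium was 186 to 264 and 183 to 238 CPM (exact permutation p = 0.314), and among them Cldn1, a tight junction protein of parietal cells, rose from 22.5 ± 3.00 to 55.0 ± 24.3 CPM (SD, n = 4 each, edgeR log2 fold change 1.29 ± 0.26 SE, adjusted p = 0.0406). Cldn1 was also called without aged mouse 1 (1.39 ± 0.26 SE, edgeR adjusted p = 0.0275). The call was lost without aged mouse 3 or any 1 of the young mice, with an adjusted p of up to 0.13. The part of these cells in the level of Vcam1 was not tested.

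Cd44 encodes a receptor for hyaluronan and osteopontin on leukocytes, activated parietal cells and injured tubules. It lies at chr2:102651298-102741822 on the minus strand. The aged mice had 8.59, 7.15, 7.16 and 8.0 CPM and the young mice 7.33, 4.6, 4.82 and 5.78 CPM. Young mouse 1 lay above aged mice 2 and 3, and the other 3 young mice were below every aged mouse. The log2 fold change was 0.46 ± 0.17 (SE, edgeR, 95% interval 0.06 to 0.85, adjusted p = 0.149), and 0.40 ± 0.18 (adjusted p = 0.192) without aged mouse 1.

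As a sum, markers of lymphocytes and plasma cells moved the same way as Vcam1 and Cd44. Their sum over the 10 listed genes in the table was 55.7 to 127 CPM in aged and 28.3 to 44.4 CPM in young mice, which do not overlap (exact permutation p = 0.0286, the smallest that 4 against 4 mice allow). Of 8 tested, Igj, the joining chain of antibodies, rose from 7.90 ± 3.82 to 49.3 ± 31.5 CPM (SD, n = 4 each, edgeR adjusted p = 0.0312), a call kept without aged mouse 1 (adjusted p = 0.02) and lost when any 1 young mouse was left out. Much of the gap between the sums was Igj, at 31.1 to 96.5 CPM in aged and 5.28 to 13.6 CPM in young mice. Ptprc, the next most abundant of the list, overlapped between the ages (14.0 to 39.7 and 19.4 to 24.3 CPM), with aged mouse 1 the lowest. The sum without Igj was not tested. Of 9 macrophage genes, Csf1r, the receptor for colony-stimulating factor 1, fell from 62.0 ± 13.9 to 30.9 ± 8.38 CPM (adjusted p = 0.0472), a call kept without aged mouse 1 (adjusted p = 0.049) and lost without aged mouse 2, aged mouse 3 or any 1 young mouse and with the replicate number as a block (adjusted p = 0.0547). The other 8 macrophage genes had log2 fold changes of 0.13 to 0.98, none of them called, and the median of the 9 was 0.49. The part of leukocytes in the levels of Vcam1 and Cd44 was not tested.

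**Figure D2:**
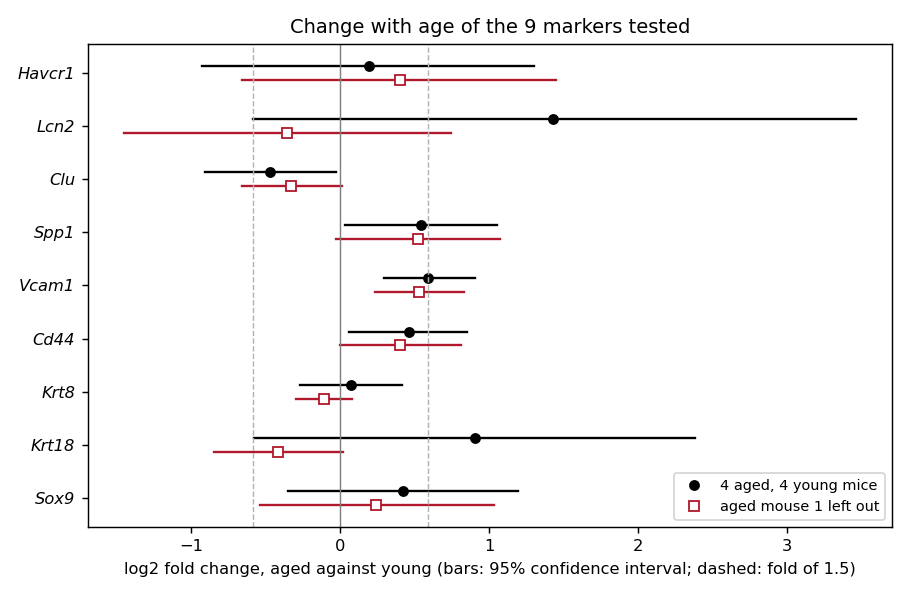
Log2 fold change, aged against young, of the 9 markers tested, with 95% intervals from edgeR, with all mice and without aged mouse 1. The dashed lines mark a fold of 1.5. The points of Lcn2, Krt18 and Krt8 cross 0 when aged mouse 1 is left out, while that of Vcam1 stays between 0.53 and 0.59.

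Krt8 and Krt18 encode the partner keratins of simple epithelia, which assemble as pairs into filaments. They are neighbours on chromosome 15, Krt8 at chr15:101827142-101834773 on the minus strand and Krt18 at chr15:101858647-101862457 on the plus strand, with starts 23874 nt apart. Krt20 encodes a keratin of intestine and of the surface cells of the urothelium, and lies at chr11:99289717-99299464 on the minus strand. The 250 bases before the start of each of these genes and of Lcn2 are shown because Krt18, Krt20 and Lcn2 were together high in aged mouse 1 and Krt8 less so. They come from RefSeq on GRCm38.p6, a later build than the mm9 of the counts, at chr15:102027966-102028215 (plus) for Krt18, chr15:102004343-102004592 (minus) for Krt8, chr11:99438154-99438403 (minus) for Krt20 and chr2:32387740-32387989 (minus) for Lcn2, each written 5′ to 3′ along its gene with the matched letters in capitals.
Krt18: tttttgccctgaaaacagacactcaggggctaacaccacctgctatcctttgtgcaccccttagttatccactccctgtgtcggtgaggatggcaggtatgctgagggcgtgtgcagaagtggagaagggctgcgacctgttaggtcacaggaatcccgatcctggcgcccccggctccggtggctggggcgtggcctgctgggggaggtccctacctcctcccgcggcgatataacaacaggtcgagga
Krt8: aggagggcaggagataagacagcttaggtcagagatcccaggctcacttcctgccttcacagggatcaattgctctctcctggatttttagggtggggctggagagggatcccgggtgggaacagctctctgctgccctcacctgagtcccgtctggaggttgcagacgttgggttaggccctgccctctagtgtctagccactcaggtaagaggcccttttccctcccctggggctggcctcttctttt
Krt20: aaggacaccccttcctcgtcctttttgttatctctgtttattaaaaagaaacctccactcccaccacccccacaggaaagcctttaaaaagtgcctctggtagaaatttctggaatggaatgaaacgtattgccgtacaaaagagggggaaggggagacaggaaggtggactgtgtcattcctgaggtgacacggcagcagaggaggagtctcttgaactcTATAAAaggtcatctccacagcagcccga
Lcn2: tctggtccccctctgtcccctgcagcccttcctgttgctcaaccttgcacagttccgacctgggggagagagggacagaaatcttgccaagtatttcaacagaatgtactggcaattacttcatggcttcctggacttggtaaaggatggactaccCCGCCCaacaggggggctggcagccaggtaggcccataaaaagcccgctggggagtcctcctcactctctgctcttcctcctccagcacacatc

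A TATA box, TATAAA, stood in the Krt20 window at -29 to -24 from the start, and 12.4% of 32851 RefSeq promoters of the same length held one on either strand. A GC box, GGGCGG, stood on the reverse strand of the Lcn2 window at -94 to -89, and 32.7% of promoters held one. The AP-1 letters TGANTCA (6.75% of promoters), the STAT letters TTCNNNGAA (7.02%) and the NF-kB motif (3.9%) were looked for on both strands and had no match in these 4 windows. None of the 5 motifs was therefore shared by Krt18, Krt20 and Lcn2. A match is only a match of letters.

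Krt8 varied little among the young mice. The young mice had 55.6, 54.2, 50.8 and 57.9 CPM and the aged mice 77.1, 45.8, 50.7 and 55.4 CPM. Aged mouse 1 was 1.33 times the highest other mouse, and aged mice 2 and 3 lay below all 4 young mice. Its log2 fold change was 0.07 (edgeR, 95% interval -0.27 to 0.41, adjusted p = 0.798), and -0.11 ± 0.08 (SE, adjusted p = 0.44) without aged mouse 1. limma-voom gave -0.07.

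Krt18 had 63.0 CPM in aged mouse 1 and 10.3, 9.24 and 7.84 CPM in aged mice 2 to 4. The young mice had 14.1, 8.51, 14.0 and 12.2 CPM. Aged mouse 1 was 4.46 times the highest other mouse, and the lowest level of all belonged to aged mouse 4. The log2 fold change was 0.90 ± 0.66 (SE, edgeR adjusted p = 0.404) with all mice and turned to -0.42 ± 0.19 (95% interval -0.85 to 0.02, adjusted p = 0.206) without aged mouse 1. limma-voom with its sample quality weights gave -0.20. Per length, Krt18 stood at 1.05 of Krt8 in aged mouse 1 and at 0.182 to 0.291 in the other aged mice, against 0.203 to 0.355 in the young mice. The ratio was therefore near parity in 1 mouse, and the ages were not distinguishable in it (exact permutation p = 0.857).

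Krt20 had 2.75 CPM in aged mouse 1, from 56 counts, and 0.585, 0.694 and 0.218 CPM in aged mice 2 to 4, from 9, 13 and 4 counts. The young mice had 0.308, 0.106, 0.136 and 0.177 CPM, from 5, 2, 2 and 3 counts, so 3 of the 4 stood at or under the floor of 3 counts. Aged mice 1 to 3 were above every young mouse, and aged mouse 4 lay inside the young range. With no filter on low counts, over 18224 genes, the log2 fold change was 2.51 ± 0.78 (SE, edgeR adjusted p = 0.115), and it rests on these few counts. In the fits with 1 mouse left out, Krt20 passed the filter only where aged mouse 4 or a young mouse was the one removed, through its counts in the aged mice. Its adjusted p there, 0.0427 without aged mouse 4 and up to 0.227 otherwise, is therefore given as a description only. It was not tested without aged mouse 1.

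Sox9 encodes a transcription factor that surviving tubular cells switch on when they divide to repair the nephron. It lies at chr11:112643538-112649074 on the plus strand. The aged mice had 2.80, 1.56, 1.66 and 2.23 CPM and the young mice 1.97, 0.793, 1.29 and 2.12 CPM. The groups overlapped, with aged mouse 1 highest and young mouse 2 lowest. Its log2 fold change was 0.42 (edgeR, 95% interval -0.35 to 1.19, adjusted p = 0.451), and 0.24 (adjusted p = 0.694) without aged mouse 1.

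**Figure D3:**
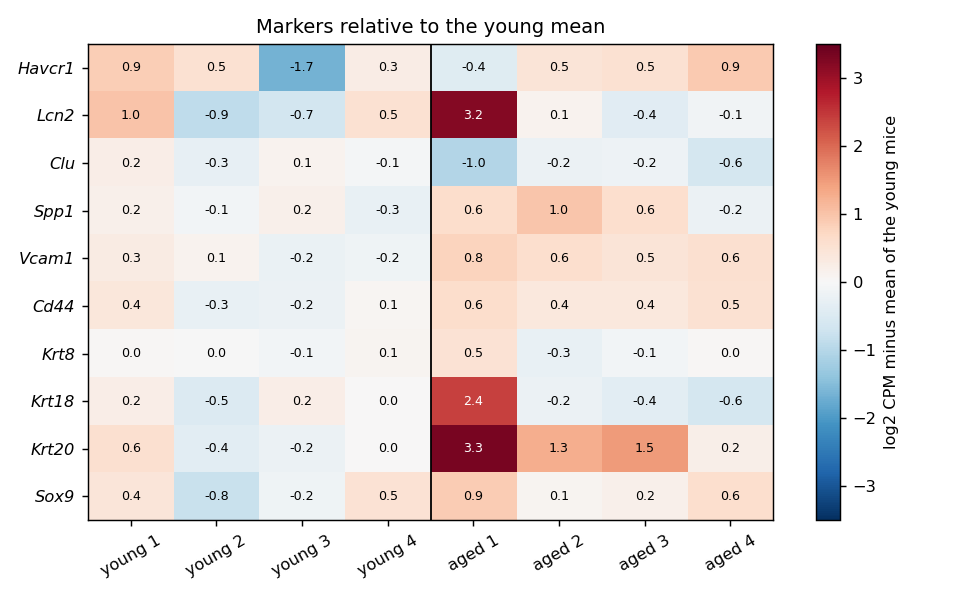
Log2 CPM of each marker in each mouse minus its mean over the 4 young mice, with red above and blue below that mean. Aged mouse 1 is the darkest column, at 3.2 for Lcn2, 2.4 for Krt18 and 3.3 for Krt20, while Vcam1 is the row in which all 4 aged mice lie above all 4 young mice.

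The markers did not move as a block in aged mouse 1. It was the highest of the 8 mice in 7 of the 10 markers and the lowest in Clu. Against the mean of the other aged mice, on the log2 CPM scale, Lcn2 was 3.34 higher, Krt18 2.78 and Krt20 2.32. Only 0.287% of the genes tested exceeded Lcn2 by this measure and 0.516% exceeded Krt18. Krt8 and Sox9 were 0.61 higher, Vcam1 0.24, Cd44 0.21 and Spp1 0.17, while Clu differed by -0.69 and Havcr1 by -1.05. Thus 2 of the 9 tested were more than 1 log2 unit higher, beside 6.46% of all genes, and Havcr1, the receptor of the injured proximal tubule, was lower in this mouse than in any other aged mouse.

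Urothelial genes stood out in the same library. The sum over 7 of them, the uroplakins Upk1a, Upk1b, Upk2, Upk3a and Upk3b with the keratins Krt5 and Krt13, was 78.5 CPM in aged mouse 1 and 0.612 to 7.41 CPM in the other 7, a fold of 10.6 over the highest. Uroplakins form the plaques of the urothelial surface, which lines the renal pelvis. Upk1a was at 23.6 CPM against 0.340 to 2.47 elsewhere, and Upk1b was at 22.2 CPM against 0 to 1.04. Krt5, a basal cell keratin, was at 4.47 CPM against 0 to 1.49, and Krt13 had no count in this library. Upk1a, the 1 gene of the list with enough counts to test, had a log2 fold change of 2.80 ± 1.24 (SE, edgeR adjusted p = 0.196) and 0.23 without aged mouse 1. Krt18 and Krt20 are themselves keratins of the urothelium. The part of urothelial cells in the levels of Krt18, Krt20 and Lcn2 was not tested.

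Markers of other segments were read in the same way. The sum over 10 collecting duct genes was 728 CPM in aged mouse 1 and 426 to 536 CPM in the others. This rested on the water channels Aqp2, at 271 CPM against 79.8 to 138, and Aqp4, at 187 CPM against 3.15 to 54.9. Aged mouse 1 was the lowest of the 8 mice for 5 of the other 8 genes, and the median difference of the 10 from the other aged mice was -0.22 on the log2 scale. The sum over 22 genes of the mature proximal tubule was 24989 CPM, against 40167 to 57734 in aged mice 2 to 4 and 60125 to 68529 in the young mice. That sum did not overlap between the ages (exact permutation p = 0.0286), although without Kap, an androgen-driven gene, it did (36150 to 43448 in aged mice 2 to 4 and 39962 to 45673 in the young, p = 0.0857 with all mice). Neutrophil genes, of which Lcn2 is also a product, summed to 7.56 CPM in aged mouse 1, within the 7.05 to 8.06 of the other aged mice and above the 2.85 to 5.67 of the young mice (exact permutation p = 0.0286). The sum was mainly S100a8, S100a9 and Csf3r, of which edgeR called none. Ltf, too low in counts to be tested, lay the other way, at a mean of 0.276 CPM in aged and 0.461 CPM in young mice. Mpo, Elane and Camp, made in neutrophil precursors, had no count in any library. The part of other segments in the level of Lcn2 was not tested.

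**Figure D4:**
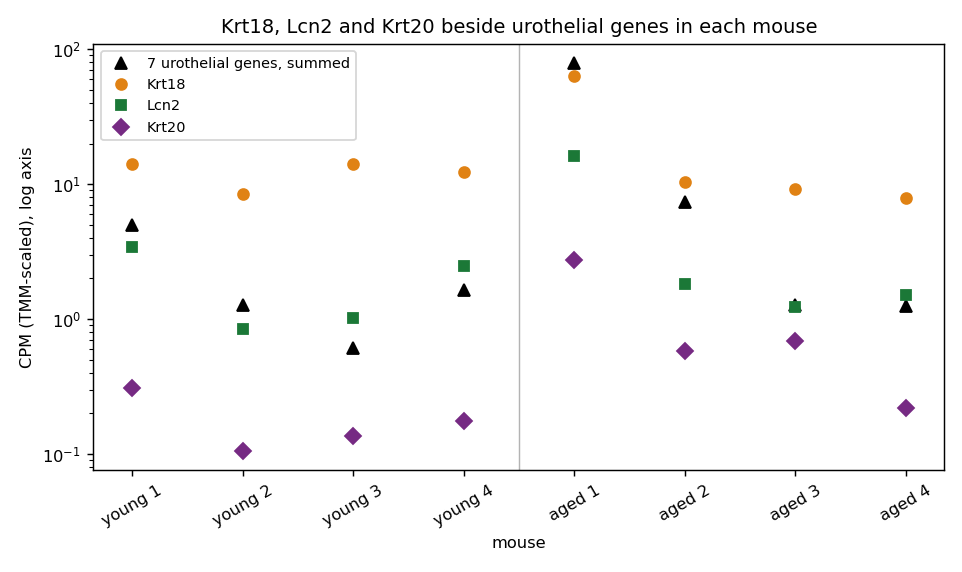
CPM of Krt18, Lcn2 and Krt20 and the summed CPM of 7 urothelial genes in each mouse, on a log axis. All 4 are highest in aged mouse 1, where the urothelial sum is 78.5 CPM and Krt18 is 63.0 CPM.

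Other genes known from tubular injury and failed repair were taken as a second list of 47, of which 45 were tested. In aged mice 3 rose (Fgb, Fgg and Myc) and 2 fell (Tnfrsf12a and Hbegf), and the median log2 fold change was 0.07. Of all genes 1.17% were called higher and 0.889% lower. Fgb and Fgg encode chains of fibrinogen, which injured tubules make as well as liver. Fgb was 2.99 to 5.13 CPM in aged and 0.431 to 1.22 CPM in young mice, with a log2 fold change of 2.57 ± 0.35 (SE, edgeR adjusted p = 0.0171). Fgg was 10.1 to 45.2 CPM in aged and 4.72 to 7.41 CPM in young mice (2.02 ± 0.44, edgeR adjusted p = 0.049). Fga, a further fibrinogen chain of the list, chosen after its values were seen, was not called (0.92 ± 0.65 SE, edgeR adjusted p = 0.39). Its groups overlapped, at 18.1 to 173 CPM in aged and 15.5 to 50.3 CPM in young mice. Without aged mouse 1 it was at -0.15 (edgeR adjusted p = 0.845). Myc, a growth-promoting transcription factor, was 12.3 to 28.8 CPM in aged and 4.97 to 8.50 CPM in young mice (1.49 ± 0.28, edgeR adjusted p = 0.0385).

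The pair that fell encode a receptor and a growth factor. Tnfrsf12a, the receptor for the cytokine TWEAK, was 7.73 to 13.8 CPM in aged and 17.3 to 20.6 CPM in young mice (-0.91 ± 0.18 SE, edgeR adjusted p = 0.0396). Hbegf, a ligand of the EGF receptor that promotes tubular repair, was 9.45 to 14.6 CPM in aged and 19.8 to 22.7 CPM in young mice (-0.85 ± 0.14 SE, edgeR adjusted p = 0.0273). All 5 were called without aged mouse 1 as well. With another mouse left out, the call for Fgb was lost without young mouse 1, 2 or 4 and that for Myc without aged mouse 3 or any 1 young mouse. The calls for Fgg, Tnfrsf12a and Hbegf were lost without aged mouse 2, aged mouse 3 or any 1 young mouse, and the adjusted p of the 5 reached 0.0855 to 0.145. Fgg was also lost with robust fitting, with a mean CPM of at least 1 as the filter and with the replicate block.

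Without aged mouse 1 the second list held 7 calls, and its median was -0.13. Among those added was Krt7, a further keratin of simple epithelia, chosen after its values were seen. It was lower in the aged mice that remained (-0.60, edgeR adjusted p = 0.0383). Aged mouse 1 was the highest of the 8 mice for 23 of the 45 genes, beside 28.4% of all genes. It was more than 1 log2 unit above the other aged mice for 15 of 45, beside 6.46% of all genes. Among them, chosen after their values were seen, were Plin2, a lipid droplet protein (619 CPM against 59.1 to 85.6 in the other 7) and Krt19 (19.6 against 0.106 to 3.20).

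Binding partners of the markers were the third list, of 19 genes with 15 tested, and edgeR called none, beside 2.06% of all genes. At an unadjusted p under 0.05 there were 3 higher and 1 lower (13.4% and 12.1% of all genes). Itga4, the alpha chain of the integrins that hold Vcam1, had a log2 fold change of 0.57 (edgeR adjusted p = 0.129), and 0.69 (adjusted p = 0.0556) without aged mouse 1. Itgb7, a beta chain that pairs with it, had 0.67 (adjusted p = 0.138), and 0.81 (adjusted p = 0.0635) without that mouse. Itgb3, the beta chain of an integrin that binds osteopontin, was 5.00 to 28.3 CPM in aged and 2.65 to 4.54 CPM in young mice, with the highest value in aged mouse 1 (1.82 ± 0.53 SE, edgeR adjusted p = 0.089). Without that mouse Itgb3 was called (0.96 ± 0.23 SE, adjusted p = 0.0477). Lrp2, megalin, the proximal tubule receptor that takes up Lcn2 and Clu, was at 3859 CPM in aged mouse 1 and 8727 to 11157 CPM in the other 7, a gene chosen after its values were seen.

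Of the 22 mature proximal tubule genes, 0 were called by edgeR, beside 2.06% of all genes. At an unadjusted p under 0.05 (13.4% of all genes higher, 12.1% lower), 1 of the 22 was higher and 6 were lower. Those with the smallest p were Slc22a7, an organic anion transporter (-4.02 ± 0.99 SE, adjusted p = 0.0615), Ggt1, a brush border peptidase (-0.91, adjusted p = 0.0748), and Slc5a1, a sodium-glucose cotransporter (-0.62, adjusted p = 0.0942). All 4 aged mice were below all 4 young mice for each of these 3, which were picked by their p in the same mice. That separation is therefore no further support. Without aged mouse 1, Slc5a12, a lactate transporter, was called higher (0.96, edgeR adjusted p = 0.0258), and Pck1, of gluconeogenesis (-0.85, adjusted p = 0.0204), and Ggt1 (-0.72, adjusted p = 0.0386) were called lower, at a list median of -0.13 in place of -0.24.

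The remaining cell type lists held no further call by edgeR. In the loop and distal tubule Calb1, a calcium-binding protein of the distal convolution (-0.77, adjusted p = 0.0998), Slc12a3, its thiazide-sensitive cotransporter (0.47, adjusted p = 0.133), and Egf (-0.36, adjusted p = 0.155) had the smallest p of 10 tested. Without aged mouse 1 Calb1 was at -0.56 (adjusted p = 0.0274), a fold below 1.5. Of 4 thin limb genes tested these included Aqp1 (-0.26) and Cldn4 (0.79), of 10 collecting duct genes Scnn1b (-0.26), Avpr2 (-0.32) and Aqp2 (0.56), and of 5 podocyte genes Nphs1 (0.20) and Wt1 (0.26), with adjusted p from 0.168 to 0.517 for the genes named. Of 7 endothelial genes they were Ehd3 (-0.28, adjusted p = 0.089), Tek (-0.21, adjusted p = 0.19) and Plvap (0.17, adjusted p = 0.556). Of 9 fibroblast and smooth muscle genes they were the collagens Col3a1 (-1.24, adjusted p = 0.0559), Col1a1 (-1.20, adjusted p = 0.0729) and Col1a2 (-0.57, adjusted p = 0.0969), and Col1a1 and Col3a1 were called lower without aged mouse 1. The sums of the thin limb, podocyte, fibroblast and erythroid lists overlapped between the ages (exact permutation p from 0.343 to 0.943). The thin limb sum, 637 to 930 CPM, was mostly Aqp1 (547 to 883 CPM), which is also in the proximal tubule list. The erythroid sum was the level of Alas2 alone.

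Among leukocyte and other genes, the neutrophil calgranulins S100a9 (1.02, edgeR adjusted p = 0.0811) and S100a8 (1.37, adjusted p = 0.089) and the receptor Csf3r (0.48, adjusted p = 0.388) were the 3 tested. In the lists with 1 call the next genes were Cd3g (1.19, adjusted p = 0.148) and Cd4 (0.79, adjusted p = 0.224) for lymphocytes, Cd14 (0.98, adjusted p = 0.151) and C1qa (0.49, adjusted p = 0.233) for macrophages, and Dkk3 (0.31, adjusted p = 0.233) and Ncam1 (-0.30, adjusted p = 0.577) for the parietal epithelium. Alas2, of heme synthesis in red cell precursors, was the 1 erythroid gene tested (-0.26, edgeR adjusted p = 0.647). The 4 listed globin genes in the table had no count in any library. Pairs that aligned to more than 1 place were not counted (34.3% to 39.06% of each library's total, with these included). The cause of the empty globin rows was not tested, and they were not read as absence of globin RNA.

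Genes most like the 3 markers with the smallest p were sought by the root mean square difference of mean-centred log2 CPM over the 8 mice. Nearest to Vcam1 were Zfp119b, Unk and Cep110, each at 0.11. Nearest to Cd44 were Fxyd5 at 0.10, Paox at 0.11 and Lpcat2 at 0.12. Nearest to Clu were Shisa4 and Fblim1, each at 0.12, and 2310061C15Rik at 0.13. None of these 9 was called by edgeR (adjusted p from 0.0683 to 0.243).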

How the data were processed

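RNA was extracted from kidney cortex of 8 male mice. The authors depleted ribosomal RNA, made stranded libraries, aligned paired reads to mm9 with TopHat2, counted them strand by strand on RefSeq genes using HTSeq and deposited raw counts per gene. Tool versions are not given in the sources used here. Each library's own table was used, and the joint table was not, since its 8 columns of per-sample values carry names that match no sample label. The 5 lines of HTSeq that name no gene were left out. Pairs on no gene were 22.59% to 29.91% of the sum with these lines in aged and 19.95% to 25.12% in young libraries (exact permutation p = 0.143).

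Counts were tested in R 4.3.3 with edgeR 4.0.16 quasi-likelihood (TMM, filterByExpr with minimum count 10, no covariate), with Benjamini-Hochberg adjustment over all genes tested. This stands in for the DESeq of the study's methods, with the same limits on fold (1.5) and adjusted p (0.05). Standard errors were the log2 fold change divided by the square root of F, and 95% intervals used the t distribution. CPM were scaled by TMM, and log2 CPM used a prior count of 2. Alternatives were other scalings, DESeq2 1.42.0, limma 3.58.1 (voom with sample quality weights), robust fitting, other filters and limits, the replicate number as a block, and each mouse left out. The proximal tubule sum without Kap was added after seeing the data. Tests were checked on simulated counts. Single values per mouse were compared by 2-sided exact permutation over 70 orders.

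Lengths and mm9 coordinates came from the GENCODE annotation of that build. BLAST 2.17.0 found no copy of any marker elsewhere in mm9 at 98% identity over 100 nt. Promoters of 7 of the 10 markers matched in RefSeq. Replicates are separate mice. Members and lists were chosen with earlier results of these data known. The text names all 10 markers, every called gene of the other lists or, where fewer than 3 were called, the 3 with the smallest p, and 3 genes most like each of the 3 markers with the smallest p. Some genes this rule names are not reported here. Any further gene is a marker within a printed sum or is marked as chosen after its values were seen.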

Additional observations from a re-analysis of the deposited data

Results flagged for a closer look

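In 2 of the 50 groups of 4 mice examined, 1 mouse lay past Dixon's 95% limit on the log2 CPM scale, where chance gives about 2.5. Both were aged mouse 1. For Lcn2 the gap from this mouse to the next aged mouse was 0.854 of the whole range of the aged group, with 16.3 CPM against 1.23 to 1.82. For Krt18 it was 0.868, with 63.0 CPM against 7.84 to 10.3.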

How the results depend on the processing

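Of 151 log2 fold changes of the tested markers recomputed under the alternatives, 139 kept their direction and side of the threshold. A further 7 reversed and 5 passed a threshold they had missed. No marker was called in the main test, so none could lose a call. The 287 genes called became 484 with library size only (75.4% of them higher in aged mice against 56.8%, with the median of all genes shifted by 0.11 on the log2 scale), 873 with DESeq2, 483 with limma-voom (49.3% higher), 130 with the replicate number as a block and 165 at a fold above 2. Leaving out 1 mouse gave 8 (without young mouse 1) to 733 (without aged mouse 4) called genes, with 444, 119 and 115 without aged mice 1, 2 and 3 and 35, 14 and 12 without young mice 2, 3 and 4. Markers called higher went from 0 to 1 (Vcam1) with upper-quartile scaling, library size only and DESeq2, and ranged from 0 to 3 over the left-out mice (3 without aged mouse 4: Vcam1, Spp1 and Krt20, the last of which passed the filter only through its aged counts). Markers called lower stayed at 0 in each of these. Over the left-out mice the log2 fold change ranged from -0.14 (without young mouse 3) to 0.47 for Havcr1, also -0.02 without aged mouse 4, and, with each lowest value without aged mouse 1, from -0.36 to 1.86 for Lcn2, -0.11 to 0.16 for Krt8 and -0.42 to 1.18 for Krt18. With limma-voom Krt8 turned to -0.07 and Krt18 to -0.20. The cause of these shifts was not tested. DESeq2 gave no adjusted p for Lcn2 and Krt18. Mice of the same replicate number deviated together with correlations of -0.03 to 0.206 over genes. Aged mice 1, 2 and 3 each lay closest to the young mouse of their own number (0.206, 0.038 and 0.199). Aged mouse 4 lay closest to young mouse 2 (0.057). The labels name no pairs, so the numbers were not taken to pair the mice. The block changed no marker's call (Vcam1 0.60, edgeR adjusted p = 0.0572). Depth limits Krt20, Havcr1 and Sox9 most, at a few CPM or less.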
